A study of Mus musculus with 39 samples.

Results

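Lhx2, Insm1, Tmprss4, Hpgd, Ryr2 and Tnnt2 are 6 genes of other tissues that were chosen by their measured levels. The choice was for high levels on arrays of MLL-AF4 leukemic mouse lymphoblasts and low ones on arrays of normal pre-B or pro-B cells. They were measured by 9 probe sets of the 20380 that carry a single gene symbol, and they are 6 of the 12393 genes measured. Because the levels chose them, the leukemic levels against pre-B and pro-B cells are given as a description, without a test. Their lower level in pre-B or pro-B cells is part of the choice too. It was not low for all: Tnnt2 was above the background limit defined below on all 8 pre-B arrays and Ryr2 on 6 of 8. What the choice did not use was how the genes varied among the leukemias and their levels in immature and mature B cells.

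RNA from sorted bone marrow cells was amplified, labelled with biotin and hybridized to 39 Affymetrix mouse arrays. Normal cells of adult mice gave 23 arrays: 6 of pro-B cells (B220+ CD43+ IgM- IgD-), 8 of pre-B cells (B220+ CD43- IgM- IgD-), 6 of immature B cells (B220+ CD43- IgM+ IgD-) and 3 of mature B cells (B220+ CD43- IgM+ IgD+). The other 16 arrays held leukemic cells of the pre-B sort, 11 without and 5 after pIpC, a synthetic double-stranded RNA that is widely used to switch on an interferon-driven Cre recombinase. The labels name an Mll-AF4stop knock-in allele for leukemia 116 alone, whose description does not state leukemia. They give no strain, sex, Cre driver or animal identity for the groups, and no age beyond adult for the normal mice, so p-values measure the spread between these arrays, and the number of arrays limits the precision. Levels are log2 of the deposited RMA intensity (RMA is a background correction, normalization and summary of the probes of a probe set). A level was called above the background limit when it was over 5.25, the 95th percentile of 96 probe sets of olfactory and vomeronasal receptors and keratin-associated proteins, which blood cells are not known to use. On single arrays this percentile ran from 4.56 to 7.53, and over all arrays the 99th percentile was 6.27. Calls for levels between 4.56 and 7.53 thus depend on the limit chosen. A level under the limit does not mean that a gene was not expressed. In such bulk samples, fewer cells of a type and less RNA per cell cannot be told apart.

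Lhx2 is a LIM homeodomain transcription factor of the developing forebrain, eye, limb and hair follicle, and it maintains blood progenitors in culture when forced on. Insm1 is a zinc-finger repressor of developing neuroendocrine cells. Tmprss4 is a serine protease of the epithelial cell surface, Hpgd is the enzyme that inactivates prostaglandins, Ryr2 is the calcium release channel of heart muscle and Tnnt2 is cardiac troponin T, which anchors the troponin complex to tropomyosin. MLL-AF4 is the fusion protein of a human acute lymphoblastic leukemia of infants, and Hoxa9, a homeobox gene, is its best known target and is used below as an outside gene.

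The 250 bases before the annotated start of a gene show how different the promoters of these genes are, and 4 of the 6 genes had a window in the RefSeq table (build GRCm38.p6). The window with most CG pairs of each is printed 5' to 3' with the CG pairs, which are counted below, in capitals. They lie at chr2:38339031-38339280 on the plus strand for Lhx2, chr13:12106946-12107195 on the minus strand for Ryr2, chr8:56294302-56294551 on the plus strand for Hpgd and chr1:135836084-135836333 on the plus strand for Tnnt2.
Lhx2: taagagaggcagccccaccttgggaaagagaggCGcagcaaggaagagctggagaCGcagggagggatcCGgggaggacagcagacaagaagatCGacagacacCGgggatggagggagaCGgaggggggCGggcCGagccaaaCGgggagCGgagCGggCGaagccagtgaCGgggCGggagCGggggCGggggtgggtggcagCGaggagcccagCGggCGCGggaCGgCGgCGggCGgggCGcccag
Ryr2: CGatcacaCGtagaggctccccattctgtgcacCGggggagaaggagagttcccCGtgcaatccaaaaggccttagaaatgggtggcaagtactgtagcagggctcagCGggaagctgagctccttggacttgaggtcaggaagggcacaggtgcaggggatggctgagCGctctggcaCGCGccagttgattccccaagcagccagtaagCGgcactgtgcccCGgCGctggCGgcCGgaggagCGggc
Hpgd: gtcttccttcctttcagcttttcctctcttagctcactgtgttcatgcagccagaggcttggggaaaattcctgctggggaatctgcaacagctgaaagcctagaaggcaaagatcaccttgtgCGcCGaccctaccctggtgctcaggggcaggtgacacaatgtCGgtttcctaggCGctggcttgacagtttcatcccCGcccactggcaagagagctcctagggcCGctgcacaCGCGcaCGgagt
Tnnt2: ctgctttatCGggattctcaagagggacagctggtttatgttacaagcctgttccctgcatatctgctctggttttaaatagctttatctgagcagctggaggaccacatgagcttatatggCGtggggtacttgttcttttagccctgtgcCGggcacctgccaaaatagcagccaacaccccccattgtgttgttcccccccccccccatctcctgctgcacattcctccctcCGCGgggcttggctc
The Lhx2 window held 25 CG pairs, the Ryr2 window 14, the Hpgd window 9 and the Tnnt2 window 5, against a median of 6 over 32851 windows of 27025 genes. A further Lhx2 window held 24 and a further Tnnt2 window 0. TATAAA and TAATTA, searched on both strands, were in none of these windows and in 12.4% and 4.84% of all windows. TGACAG, also searched on both strands, was once in the Hpgd window and in 15.9% of all windows. Insm1 and Tmprss4 are not shown.

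Some arrays stood apart before any member was considered. Leukemia 122 had a mean level of 7.49 over 11 B-lineage markers, against 10.33 to 11.01 on the other 15 leukemic arrays, and its Cd79a, a subunit of the B cell receptor, was at 7.0. It had the highest means of all leukemic arrays for stem and progenitor markers (6.79) and for myeloid markers (9.86). Leukemia 153 had a mean of 8.61 over 14 macrophage markers, a list chosen after values were seen. Xist and the Y-linked Eif2s3y were both above the background limit in leukemias 153 (9.65 and 7.73), 17 (7.30 and 10.19), 154 (6.17 and 10.42), A992 (5.51 and 11.29) and 270 (5.50 and 10.28). The Xist levels of leukemias 154, A992 and 270 were under 6.27, the 99th percentile of the background probe sets. Leukemia A46 was at 4.57 and 10.67. On all 23 normal arrays Xist lay between 11.61 and 12.77 and Eif2s3y between 2.27 and 2.55. Leukemias A992, 270 and A46 were among the 5 after pIpC. Sex is not in the labels, and its part in the levels of the members was not tested. The arrays also fell into 2 runs of consecutive accession numbers, of 22 and 17 arrays, whose beta-actin 3' minus 5' probe difference did not overlap (1.29 ± 0.08 SD and 0.80 ± 0.14 SD on the log2 scale). The same difference for Gapdh went the other way (0.97 ± 0.11 SD and 1.29 ± 0.20 SD), with overlapping ranges (0.81 to 1.26 and 1.02 to 1.68). Values without leukemia 122 and within each run are given where they bear on a result.

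Lhx2, Insm1 and Tmprss4 were the 3 members that no normal stage showed: each was above the background limit on 0 of 23 normal arrays. Each was above it on most leukemic arrays, Lhx2 and Tmprss4 on 14 of 16 and Insm1 on 13. Ryr2 and Tnnt2 were above the limit on 12 of 23 normal arrays and Hpgd on 7, so the name ectopic held by this measure for 3 of the 6. For Ryr2 this turned on the probe set, since its other, dimmer one was above the limit on 0 of 23 normal and 4 of 16 leukemic arrays. Over all 12393 genes, 15 (0.121%) were above the limit on at least 8 leukemic arrays and on no normal array, and 3 members were among them, as their choice made likely.

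**Figure D1:**
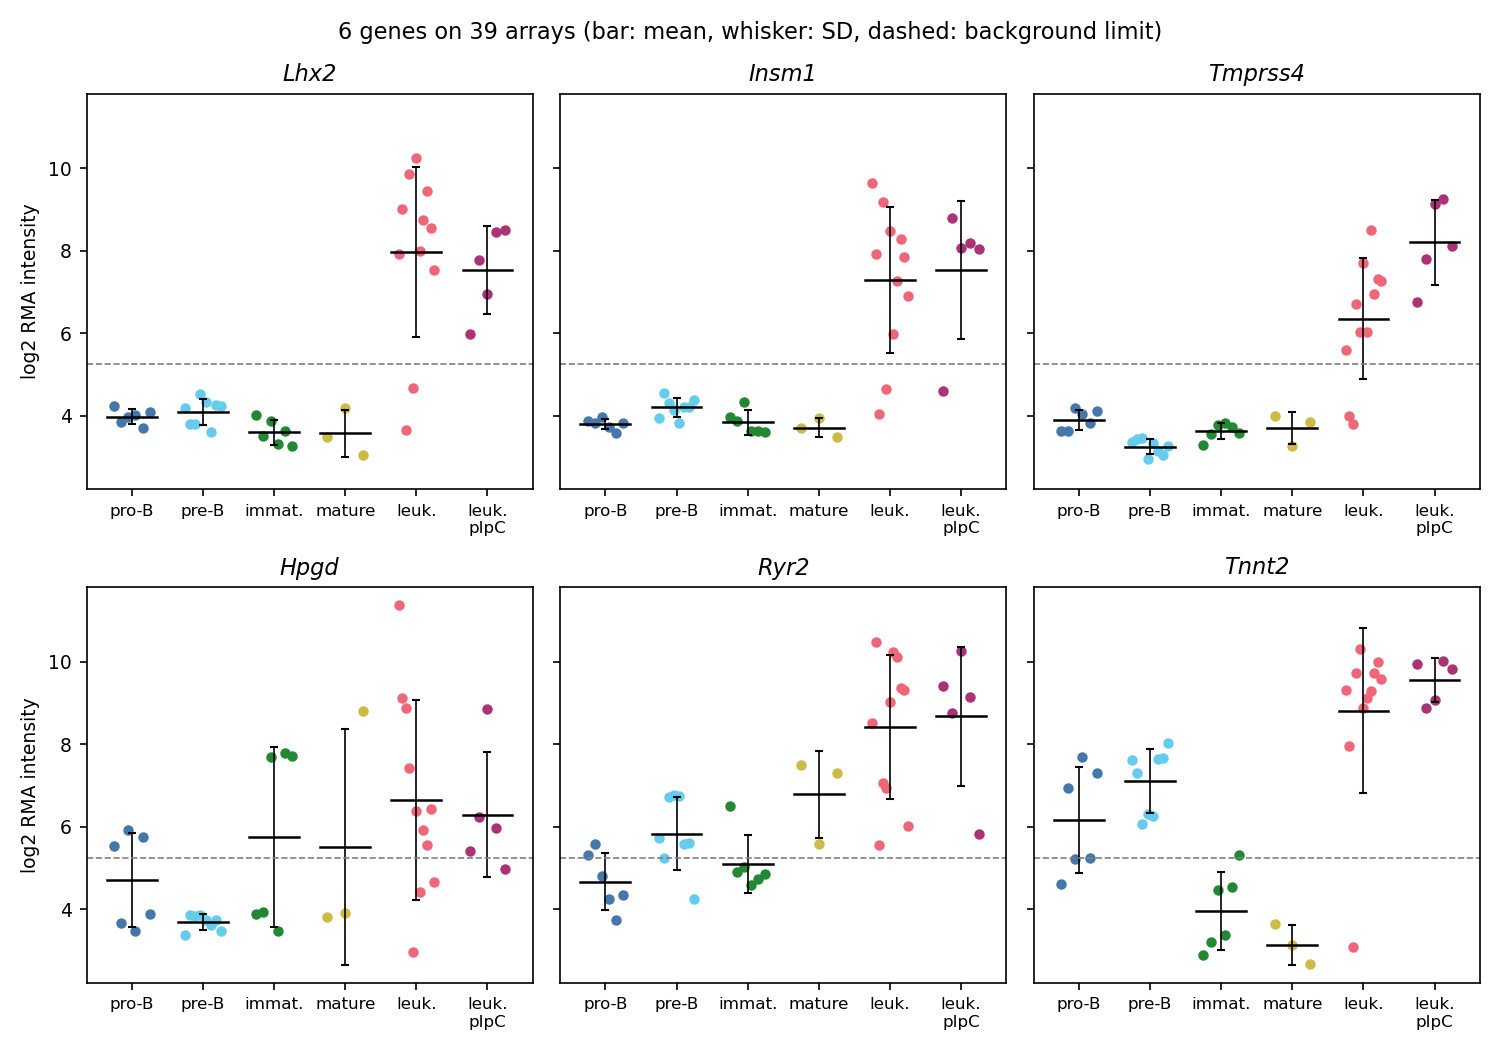
Level of each gene (log2 RMA intensity) on every array, by group, with leukemic arrays without and with pIpC apart; bars are group means, whiskers are SDs and the dashed line is the background limit of 5.25. Lhx2, Insm1 and Tmprss4 stay under the line in all 4 normal stages, whereas Hpgd, Ryr2 and Tnnt2 cross it in some.

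Lhx2 ranged from 3.66 to 10.24 on the 16 leukemic arrays, with a median of 8.22. The pre-B arrays lay between 3.62 and 4.53 and the pro-B arrays between 3.72 and 4.25. Immature B arrays ranged from 3.28 to 4.01, and the 3 mature B arrays were at 3.48, 4.20 and 3.05. All leukemic arrays but leukemia 122 were above every normal array, so the groups overlapped only through that array. The leukemic mean of 7.83 ± 1.78 (SD, n = 16) was 3.73 above the pre-B mean of 4.10 ± 0.32 (SD, n = 8) and 3.85 above the pro-B mean of 3.99 ± 0.18 (SD, n = 6). Both normal groups lay under the background limit, so the fold is a lower bound: with the normal arrays set at the limit, Lhx2 was at least 5.97-fold higher. The bounds below were computed in the same way. Without leukemia 122 the difference from pre-B cells was 4.01. Leukemias 224 and 153 were the highest, at 10.24 and 9.86, and leukemia 154, at 4.68, was above every normal array but under the background limit. The arrays of the 4 normal stages were all under the limit, where their order is not read.

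Insm1 ranged from 4.04 to 9.63 in the leukemias, with a median of 7.98. The pre-B arrays lay between 3.83 and 4.57, the pro-B arrays between 3.60 and 3.97, the immature B arrays between 3.60 and 4.35 and the mature B arrays at 3.72, 3.94 and 3.49. Again 15 of 16 leukemic arrays were above every normal array, with leukemia 122 the exception. The leukemic mean of 7.37 ± 1.69 (SD, n = 16) was 3.16 above pre-B cells and 3.56 above pro-B cells, at least 4.33-fold against either, as both lay under the limit. Without leukemia 122 it was 3.38 above pre-B cells. Leukemia 116 was the highest, and leukemias 154 (4.65) and A992 (4.60) were under the background limit with leukemia 122.

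Tmprss4 ranged from 3.80 to 9.25 in the leukemias, with a median of 7.11. Its pre-B arrays were at 2.96 to 3.47 and the pro-B arrays at 3.64 to 4.18. Immature B arrays lay between 3.31 and 3.83 and mature B arrays were at 4.01, 3.27 and 3.86. Every leukemic array was above every pre-B array, but leukemias 117 (3.99) and 122 (3.80) fell within the pro-B range. The leukemic mean of 6.93 ± 1.58 (SD, n = 16) was 3.68 above pre-B cells and 3.02 above pro-B cells, at least 3.21-fold against either, as both lay under the limit. Leukemias 270 and A1507, both after pIpC, had the highest levels at 9.25 and 9.13.

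Hpgd was the member with the widest range, from 2.96 to 11.37 in the leukemias with a median of 6.10. The 8 pre-B arrays lay between 3.37 and 3.87, under all leukemic arrays but leukemia 154. Only 4 leukemias, 116 (11.37), 117 (9.13), 122 (8.87) and A1507 (8.85), were above every normal array. The leukemic mean of 6.53 ± 2.13 (SD, n = 16) was 2.84 above pre-B cells, at least 2.43-fold as these lay under the limit, and 1.82 above pro-B cells. Within the second accession run the differences were 1.86 and 1.14.

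The normal arrays of Hpgd split within their stages. Immature B arrays 2, 3 and 6 were at 7.79, 7.72 and 7.69, and arrays 1, 4 and 5 at 3.48, 3.88 and 3.93. Mature B array 3 was at 8.81, with arrays 1 and 2 at 3.82 and 3.91. Pro-B arrays 2, 4 and 6 were at 5.76, 5.54 and 5.93, and arrays 1, 3 and 5 at 3.48, 3.88 and 3.67. The high and low arrays of the pro-B and immature stages occurred in both accession runs.

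Markers of other cells moved with this split. The mean of the macrophage list was 8.30 to 8.40 on immature B arrays 2, 3 and 6 and mature B array 3, and 4.74 to 5.14 on the other immature and mature B arrays. C1qb, a complement subunit made by macrophages, was at 9.93 to 11.02 on the former and 4.26 to 4.79 on the latter. The split was not particular to macrophage markers. The means of erythroid (7.09 to 7.72 against 5.95 to 6.27) and myeloid markers (9.83 to 10.81 against 8.24 to 9.58) divided the same arrays. So did those of plasmacytoid dendritic cell markers (8.20 to 8.40 against 6.92 to 7.58), whereas T and NK cell means overlapped. On the pro-B arrays the means of 9 plasmacytoid dendritic cell markers were 11.05 to 11.39 on arrays 2, 4 and 6 and 9.82 to 10.29 on arrays 1, 3 and 5. T and NK cell markers split in the same way (means of 9.02 to 9.34 and 7.59 to 7.99), and the macrophage means were 5.78 to 5.85 and 5.03 to 5.12. The part of these cells in the Hpgd level of the normal arrays was not tested. In the leukemias the 6 highest macrophage means were those of leukemias 153 (8.61), 122 (6.71), 117 (5.96), 15 (5.86), 17 (5.83) and A1507 (5.45). All of these but leukemia 17 were among the 6 leukemias highest in Hpgd. Leukemia 116, with the highest Hpgd of all, had a macrophage mean of 4.77. Within the list, Csf1r, the receptor of a macrophage growth factor, was at 12.17 in leukemia 117, 11.63 in leukemia 122 and 11.01 in leukemia 153. It was at 10.31 in leukemia 15, 8.42 in leukemia 116, 8.22 in leukemia A1507 and 3.68 in leukemia 154, which had the lowest Hpgd. Csf1r was also at 8.78, 8.10, 7.71 and 7.17 in leukemias A992, A1322, 17 and A46. Their Hpgd was lower, at 5.42, 6.23, 4.66 and 4.97. C1qb was at 10.64 in leukemia 153, 7.16 in leukemia 122 and 5.74 in leukemia A1507, and under the background limit in leukemias 117 (4.90), 15 (4.76), 116 (4.43) and 154 (4.86). C1qb was also above the limit in leukemias 228 (6.51), 17 (6.36), A1322 (5.76) and A992 (5.35). Hpgd in these was at 5.55, 4.66, 6.23 and 5.42, below the leukemias highest in it. The part of macrophages in the Hpgd level of the leukemias was not tested either.

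**Figure D2:**
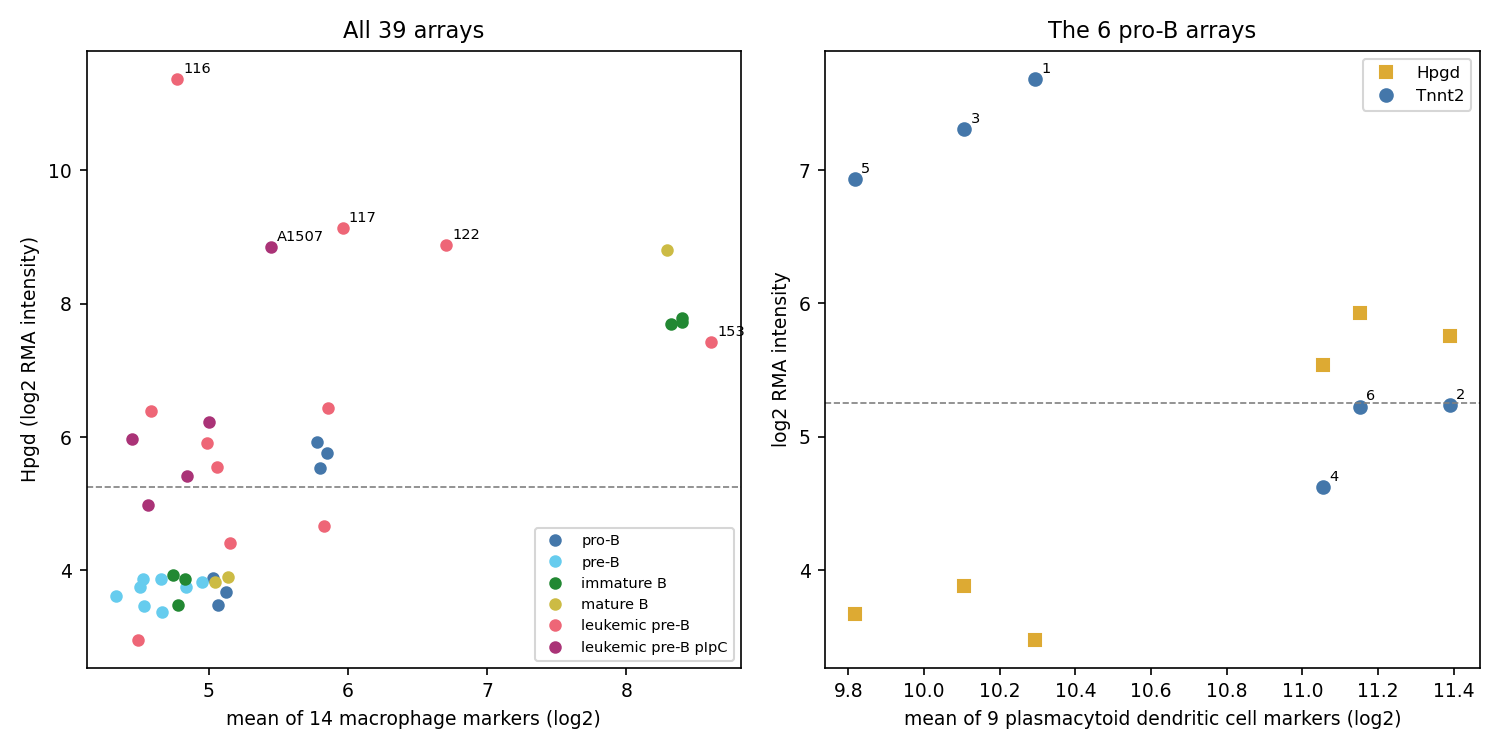
Left, Hpgd (log2 RMA intensity) against the mean of 14 macrophage markers on all 39 arrays, with leukemias that are high in either labelled; right, Hpgd and Tnnt2 against the mean of 9 plasmacytoid dendritic cell markers on the 6 pro-B arrays, numbered beside Tnnt2; dashed lines are the background limit. Immature B arrays 2, 3 and 6 and mature B array 3 lie above 8 on the macrophage axis with Hpgd above 7, whereas leukemia 116 has the highest Hpgd at a macrophage mean of 4.77.

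Ryr2 was above the background limit on all 16 leukemic arrays, from 5.55 to 10.46 with a median of 9.08. In leukemias 122 (5.55), A46 (5.82) and 17 (6.01) it was under 6.27, the 99th percentile of the background probe sets. It was also above the limit on 6 of 8 pre-B arrays (range 4.26 to 6.78) and on all 3 mature B arrays (7.50, 5.58 and 7.29). On pro-B arrays it ranged from 3.74 to 5.58 and on immature B arrays from 4.58 to 6.50, with 2 of 6 and 1 of 6 above the limit. The leukemias overlapped the normal stages: 11 were above every normal array, and leukemias 122, 153, 154, A46 and 17 were not. The leukemic mean of 8.49 ± 1.67 (SD, n = 16) was 2.66 above pre-B cells (6.33-fold) and 3.82 above pro-B cells (14.1-fold). A further Ryr2 probe set was dim, from 3.55 to 5.79 on leukemic arrays with 4 of 16 leukemic and 0 of 23 normal arrays above the limit. It was on the same side of the limit as the first on 15 of 39 arrays, and it followed the first across the leukemias (Pearson's r 0.94 over 16 arrays, given as a description).

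Tnnt2 was above the limit on every pre-B array, between 6.06 and 8.04. Its leukemic levels ran from 3.10 to 10.30, with a median of 9.44. Pro-B arrays ranged from 4.62 to 7.68, immature B arrays from 2.90 to 5.31 and mature B arrays were at 3.64, 3.13 and 2.68. No pre-B array overlapped the immature or mature B arrays, whereas pro-B arrays did overlap the immature B arrays, and 3 of 6 pro-B and 1 of 6 immature B arrays were above the limit. Immature B arrays 2, 3 and 6, high in Hpgd, were at 4.55, 5.31 and 4.47, against 3.37, 2.90 and 3.21 on arrays 1, 4 and 5. Vpreb1, a B-lineage marker at 11.30 to 12.27 on pre-B arrays, was at 11.09, 11.04 and 10.37 on the former and 8.30, 7.87 and 7.74 on the latter. The mean of the B-lineage list also divided them (10.09 to 10.44 against 9.35 to 9.83). Single markers of that list did not all do so. Cd79a was at 12.74, 12.67 and 12.02 against 12.80, 12.47 and 12.19, and Pax5 at 7.25, 7.10 and 5.95 against 7.59, 6.04 and 6.69. The part of other cells in the immature B levels was not tested. The leukemic mean of 9.04 ± 1.69 (SD, n = 16) was 1.93 above pre-B cells (3.81-fold), and without leukemia 122 the mean was 9.44 ± 0.60 (SD, n = 15) and the difference 2.33. All but leukemias 117 (7.96) and 122 (3.10) were above every normal array. The pro-B arrays 2, 4 and 6 that were high in Hpgd had the low Tnnt2 levels (5.24, 4.62 and 5.23, against 7.68, 7.30 and 6.93 on arrays 1, 3 and 5). They were the arrays with higher means of plasmacytoid dendritic, T and NK cell markers and macrophage markers. Their Cd79a was at 10.76, 9.72 and 9.74, against 11.76, 11.54 and 10.53 on arrays 1, 3 and 5. The part of other cells in this split was not tested. The second probe sets of Tnnt2 and Hpgd followed the first (r 0.99 for both over 39 arrays). The second one of Hpgd was above the limit on 9 rather than 12 leukemic and on 5 rather than 7 normal arrays.

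Counted together, 5 of 6 members had at least 14 of 16 leukemic arrays above every pre-B array (3.22% of all genes), with Ryr2 the exception. Against pro-B cells it was 5 of 6 with Hpgd the exception (3.99% of all genes), and against all 23 normal arrays it was 4 of 6 (0.202% of all genes). The choice of the genes used these contrasts, so nothing is read from the counts.

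The leukemias differed in how much of the set they carried. All 6 members were above the background limit on 9 arrays (leukemias 116, 153, A1322, A1507, 224, 227, 228, 270 and 15), and 5 members on 5 arrays. Read from the second Hpgd probe set, all 6 were above it on 7 arrays, without leukemias 228 and 270, and from the dimmer Ryr2 probe set on 2, alternatives chosen after seeing the data. Of the 5 arrays with 5 members, leukemia 117 had Tmprss4 under the limit, leukemia A992 had Insm1 under it, and leukemias 226, A46 and 17 had Hpgd under it. Leukemia 154 had Tmprss4, Ryr2 and Tnnt2 above the limit, with Tnnt2 at its highest level of any array. Leukemia 122 had Hpgd and Ryr2 alone above the limit.

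Hoxa9 did not separate the leukemias in the same way. It was at 3.78, 4.52 and 3.24 in leukemias 116, 117 and 154, under the background limit, and at 8.36 to 11.24 in the other 13. Leukemia 116 had all 6 members above the limit with Hoxa9 under it, and leukemia 122 had 2 members above the limit with Hoxa9 at 11.21. Within the 13 arrays of high Hoxa9, its Pearson's r with the members ran from -0.26 to 0.03, and none passed the permutation test (smallest adjusted p = 0.321). Without leukemias 15 and 226, the farthest from the median of Hoxa9, r ran from -0.58 (Tmprss4) to -0.14 (Ryr2), values given without a test. With each gene's probe sets averaged, Spearman's rho of Hoxa9 with Ryr2 was -0.75 (permutation p = 0.00439, adjusted p = 0.0922), against -0.32 in the main setting.

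**Figure D3:**
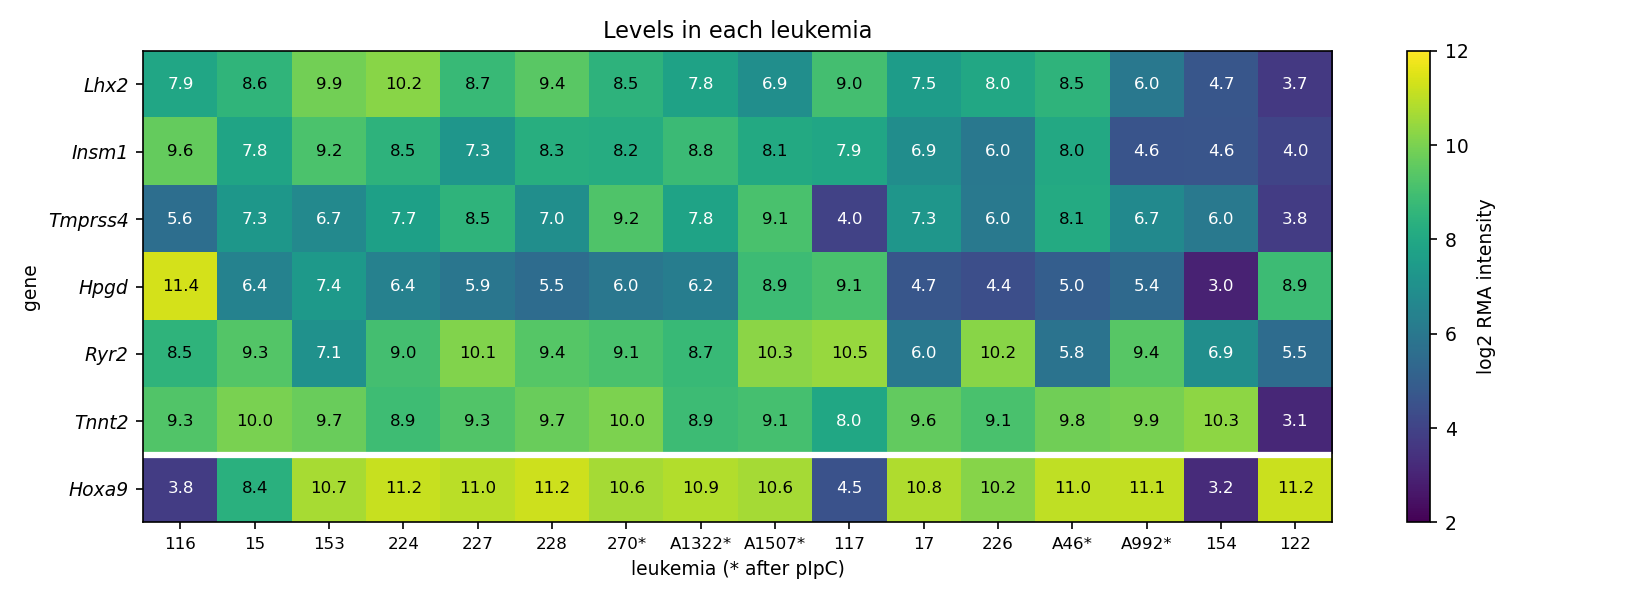
Level (log2 RMA intensity, colour and number) of the 6 genes and of Hoxa9 in each of the 16 leukemias, ordered by the number of members above the background limit; an asterisk marks arrays after pIpC. Leukemias 154 and 122, at the right, have 3 and 2 members above the limit, and leukemias 116, 117 and 154 have Hoxa9 under it.

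Of the 15 pairs of members, Lhx2 and Insm1 alone varied together across the 16 leukemias by the permutation test (Pearson's r = 0.81, permutation p = 0.00038, Benjamini-Hochberg adjusted p = 0.00798 over 21 relations). Spearman's rho was 0.57 (permutation p = 0.0247, adjusted p = 0.461), and without leukemias 122 and 154, the arrays farthest from the median of Lhx2, r was 0.58. The relation thus rests in good part on the arrays low in both genes. Within the 12 leukemias of the first accession run r was 0.80, and the second run held 4, too few for a value. Tmprss4 and Tnnt2 had r = 0.60 (permutation p = 0.0105, adjusted p = 0.110; rho 0.25, permutation p = 0.344, adjusted p = 0.886), which went to -0.15 without leukemias 122 and 117. Hpgd and Tnnt2 ran in opposite directions without passing (r = -0.45, permutation p = 0.0921, adjusted p = 0.321; rho -0.51, permutation p = 0.0439, adjusted p = 0.461). Their r was -0.58 without leukemias 116 and 154 and -0.41 within the first run. Insm1 and Hpgd had r = 0.40 (permutation p = 0.129, adjusted p = 0.321; rho 0.44, permutation p = 0.0868, adjusted p = 0.608). That r was 0.73 without leukemias 122 and A992, the farthest from the median of Insm1, and 0.24 without leukemia 116.

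**Figure D4:**
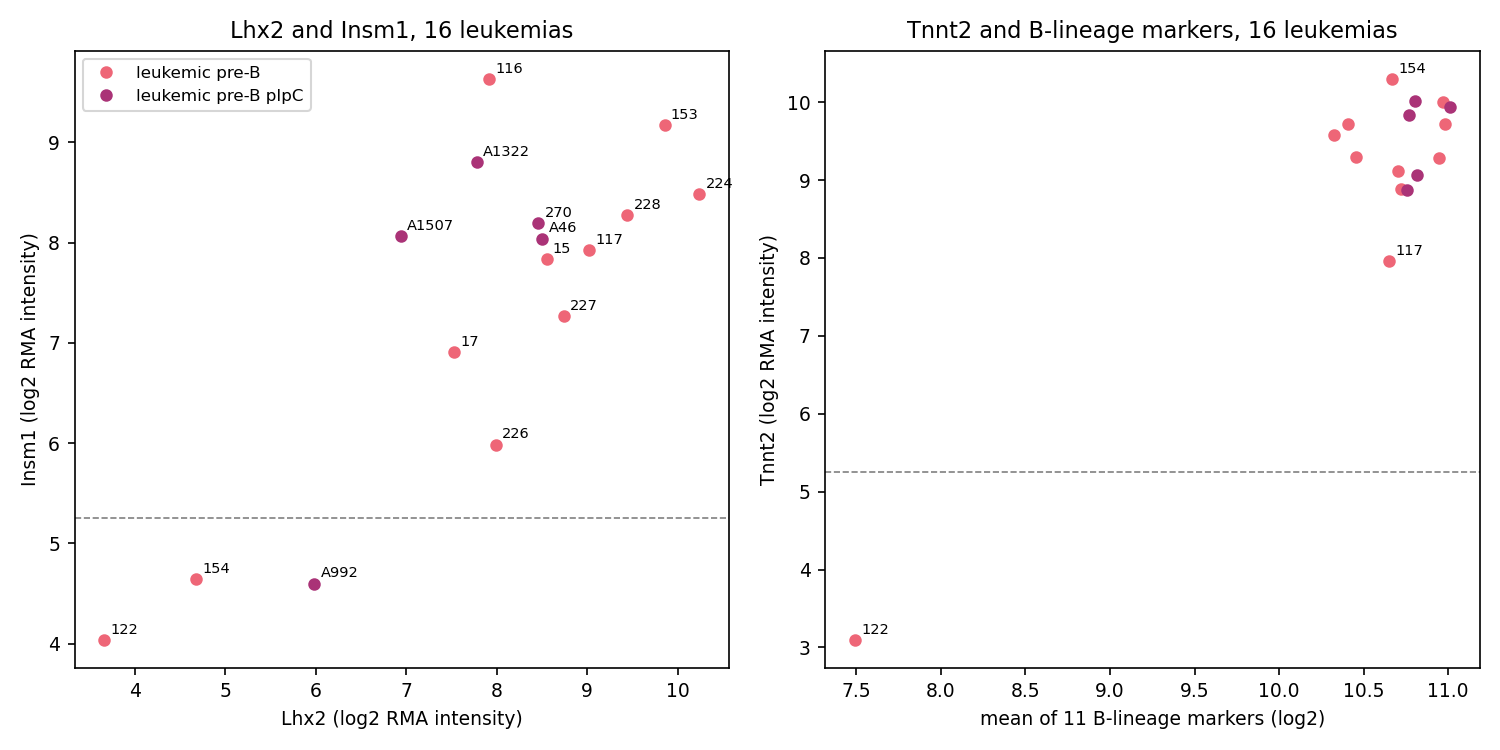
Left, Insm1 against Lhx2 in the 16 leukemias (log2 RMA intensity, arrays after pIpC in purple); right, Tnnt2 against the mean of 11 B-lineage markers, with leukemias 122, 117 and 154 labelled; dashed lines are the background limit. Leukemias 122, 154 and A992 are low in both Lhx2 and Insm1, and leukemia 122 stands alone at the low end of the B-lineage markers.

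Genes whose levels were most like each member across the 16 leukemias were taken by Pearson's r from 3814 genes that varied there, as a description. For Lhx2 they were Prkce (r 0.85), Apbb2 (0.84) and Slc12a2 (0.81), which without leukemias 122 and 154 came to 0.64, 0.57 and 0.53. For Insm1 they were Lhx2, Apbb2 (0.77) and Eps8 (0.76), which came to 0.66, 0.60 and 0.64 without leukemias 122 and A992. For Tmprss4 the nearest was Edaradd, an adaptor of the ectodysplasin receptor, with r 0.87 and rho 0.91, followed by Sit1 and Acp5. Without leukemias 122 and 117 their r was 0.68, 0.59 and 0.64. Hpgd was nearest to Ccl3, a chemokine (0.84), Rnf13 (0.84) and Cdkn2a, whose products hold back the cell cycle (0.84). The Hpgd values kept an r of 0.77 to 0.82 without leukemias 116 and 154. Ryr2 was nearest to Arhgef12 (0.83), Vwa7 (0.77) and Wdfy3 (0.77), with 0.70, 0.73 and 0.57 without leukemias 122 and A46. Tnnt2 was nearest to the B-lineage genes Vpreb3 (0.95), Cd79b (0.95) and Ebf1 (0.94). Those of Tnnt2 rested on leukemia 122, since r without it was 0.50, 0.55 and 0.19.

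Between mature and immature B cells, a contrast that the choice of genes did not use, 0 of 6 members passed limma's test at an adjusted p of 0.05, where 5.25% of all genes did (1.96% higher and 3.29% lower in mature B cells). At an unadjusted p under 0.05, 2048 of 12393 genes and, of the members, Ryr2 passed. Ryr2 was 1.69 higher in mature than in immature B cells (SE 0.53, limma adjusted p = 0.0654; 6.79 ± 1.05 SD, n = 3, against 5.10 ± 0.70 SD, n = 6). Mature B arrays 1 and 3 were above every immature B array, and mature B array 2 was below immature B array 4. Leaving out immature B array 4 gave 1.97 (limma adjusted p = 0.0209), and leaving out mature B array 2 gave 2.29 (limma adjusted p = 0.0147). With the accession run as a covariate it was 2.08 (limma adjusted p = 0.00972), all 3 mature B arrays being in the second run. Without the dimmest 40% of genes the limma adjusted p was 0.0471. Over all single arrays left out, the Ryr2 difference ran from 1.33 to 2.29. The dimmer Ryr2 probe set hardly differed, at 3.86 ± 0.18 SD in mature and 3.68 ± 0.29 SD in immature B cells. Its arrays overlapped, and all were under the limit. Tnnt2 was 0.82 lower in mature B cells (SE 0.62, limma adjusted p = 0.591), and Lhx2, Insm1 and Tmprss4 differed by less than 0.13 with all arrays under the limit. Hpgd was 0.23 lower on average (SE 1.0, limma adjusted p = 0.947) over arrays that its split divides: the difference was -1.88 without mature B array 3, between 0.15 and 0.61 without immature B array 2, 3 or 6 or mature B array 1 or 2, and no such value passed.

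Leukemic arrays after pIpC were compared with the 11 without it, and 0 of 6 members and 0 of 12393 genes (0% of all genes) passed limma's test. At an unadjusted p under 0.05, 603 genes passed. Tmprss4 was the one member among them, 1.86 higher after pIpC (SE 0.67, limma p = 0.0129, adjusted p = 0.933). Its 5 arrays after pIpC were at 6.75, 7.80, 9.13, 9.25 and 8.12, and the 11 others ranged from 3.80 to 8.50 with a median of 6.72, so the groups overlapped. With all 39 arrays in 1 fit, 49 genes were called higher and 10 lower, and the limma adjusted p of Tmprss4 was 0.0574. Insm1 after pIpC was between 8.04 and 8.80 on 4 arrays and at 4.60 in leukemia A992.

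Relatives of the 6 genes were read by function. Of 116 genes in 6 lists built around the members' roles, 104 were measured. Against pre-B cells, 4 (3.85%) rose in the leukemias, where 8.50% of all genes did, and 9 (8.65%) fell, where 7.53% of all genes did, by limma at an adjusted p of 0.05. The median difference over the 104 was -0.00037, beside -0.0069 over all genes. Against pro-B cells 10 (9.62%) rose and 5 (4.81%) fell, beside 8.11% and 7.63% of all genes, with medians of 0.27 and 0.13. Of those 10, 9 had both group means under the background limit. No related gene was above the limit on at least 8 leukemic arrays and on no normal array, and 34 were above it on no leukemic array. Between mature and immature B cells 1 related gene rose (0.962%) and 10 fell (9.62%), beside the 1.96% and 3.29% of all genes; Tmprss13 rose by 2.01 and Tmprss3 fell by 3.74 (limma adjusted p = 0.000794 and 0.000459). With pIpC 0 of 104 passed.

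Among 16 LIM homeobox genes and LIM cofactors, the relatives of Lhx2, none rose against pre-B cells and Lmo4, a LIM-only adaptor, fell by 1.70 (SE 0.18, limma adjusted p = 2.2e-07). Against pro-B cells Lhx4, Isl2 and Lmx1b rose by 0.40 to 0.51 at levels of 2.90 to 3.87, under the background limit. None of the 15 neuroendocrine genes around Insm1 passed against pre-B cells. Against pro-B cells Rcor2, a corepressor, rose by 1.06 (SE 0.34, limma adjusted p = 0.0363), and Chga rose by 0.48 at a leukemic mean of 4.03.

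Of 12 membrane serine proteases and inhibitors, St14 (matriptase) rose by 1.25 against pre-B cells (SE 0.41, limma adjusted p = 0.0358) and Tmprss3 fell by 2.45 (SE 0.46, limma adjusted p = 0.000413), so the paralogue Tmprss3 went the other way from Tmprss4. Against pro-B cells Spint1 rose by 0.63 at a leukemic mean of 4.62. Of 18 genes of prostaglandin metabolism and its receptors, Ptger4, a prostaglandin E receptor, fell by 1.23 against pre-B cells and by 1.46 against pro-B cells (limma adjusted p = 0.0131 and 0.0186). Pla2g4a, which releases the precursor arachidonic acid, fell by 1.74 against pro-B cells, and Ptgis rose by 0.50 at a mean of 4.01.

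Of 20 genes of calcium release and stores, the partners of Ryr2, 2 rose and 4 fell against pre-B cells. Orai1, the store-operated channel, rose by 0.81 and Fkbp1a, which binds ryanodine receptors, by 0.66. Asph fell by 1.45, Camk2d by 0.93 and Itpr2, an inositol trisphosphate receptor, by 0.87. Against pro-B cells Atp2a1, a calcium pump, fell by 3.53 (SE 0.26, limma adjusted p = 1.2e-09) and Asph by 2.96, while Casq1 rose by 0.23 at a mean of 2.67. Of 23 genes of striated muscle contraction, Tnnt1, the slow skeletal troponin T, rose by 1.48 against pre-B cells (SE 0.32, limma adjusted p = 0.00144). Myl4 fell by 1.41 and Tnnt3 by 0.57 against pre-B cells. Against pro-B cells Tnni2 fell by 1.67, and Des and Myl7 rose by 0.43 and 0.40 at means under the background limit. Tnnt3 was under the limit in both groups.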

How the data were processed

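The deposited table holds one intensity per probe set and array, which the authors made with RMA, per the submitters' processing notes; the RMA version is not given in the sources used here. The intensity values were taken to log2 without further normalization (array medians 82.0 to 108.7 as intensity, 6.36 to 6.76 as log2). Of 22690 probe sets, 64 controls, 691 with several symbols and 1555 with none were left out, and each of 12393 genes was read from the one of its probe sets that was brightest on average. Comparisons across all genes used limma 3.58.1 in R 4.3.3 (lmFit, eBayes with an intensity trend), on the arrays of the groups compared, with Benjamini-Hochberg adjustment over all genes and a threshold of 0.05; this recovered known changes when tested on simulated data. Correlations used 100000 permutations. The 6 members, the related gene lists and the markers were chosen with earlier results of these data known. Named genes were the members, Hoxa9, at most 3 called genes per related list and direction, and the 3 genes nearest to each member among those with a leukemic SD of at least 0.5 and at least 4 leukemic arrays above the limit. Alternatives were quantile normalization, averaging a gene's probe sets, leaving out 40% of genes as too dim or the probe sets of less specific types, the accession run, all 39 arrays in 1 fit, a replicate block and left-out arrays. Replicate numbers of immature and mature B arrays did not pair them (correlations of deviations 0.40, -0.42 and 0.65). No 2 arrays shared over 0.225% of their values.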

Additional observations from a re-analysis of the deposited data

Results flagged for a closer look

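Insm1 in leukemia A992 was at 4.60, far from the other 4 leukemias after pIpC (8.04 to 8.80). Ryr2 on immature B array 4 was at 6.50, far from the other 5 immature B arrays (4.58 to 5.03). These were 2 of 24 groups of 4 to 10 arrays checked for a far array, and chance flags about 1 in 20 such groups.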

How the results depend on the processing

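The differences of the 6 members between leukemic and pre-B or pro-B arrays were above 0 under all alternatives run. Those that moved by over 1.5 times were Ryr2 against pro-B cells (2.53 with the mean of both probe sets, from 3.82) and, within the second run, Hpgd against pre-B cells (1.86 from 2.84) and pro-B cells (1.14 from 1.82). Between mature and immature B cells the number of members called went from 0 to 1 (Ryr2) without the dimmest 40% of genes and with the accession run as covariate; with single arrays left out it was 0 to 1, and 1 without immature B array 4 or mature B array 2. Ryr2 was then 1.69, 2.08, 1.97 and 2.29 higher. With the replicate block 0 members were called (Ryr2 1.85, limma adjusted p = 0.0662). Related genes called higher against pre-B cells were 7 with quantile normalization, 7 with all arrays in 1 fit, 1 within the first run, and 2 to 6 with single arrays left out (2 without pre-B array 8). Those called lower were 3 within the first run and 8 to 10 with single arrays left out. Related genes called higher against pro-B cells were 5 with quantile normalization, 1 without the dimmest 40% of genes, 18 with all arrays in 1 fit, 1 and 2 within the runs, and 19 without leukemias 122 and 153, an alternative chosen after seeing the data. With single arrays left out they were 3 to 23, outside 1.5 times the count without leukemia 226 (23), leukemia 122 (19), leukemia 154 (6) or pro-B arrays 1 (4), 2 (4), 3 (3), 4 (6) and 6 (3). Those called lower were 2 within the first run and 3 to 7 with single arrays left out, with 3 without pro-B array 2. Where no value explains a change, the cause was not tested. Genes near or under the background limit have no reliable order.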

Other observations

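Beside Lhx2, Insm1 and Tmprss4, another 12 genes were above the background limit on at least 8 of 16 leukemic and on 0 of 23 normal arrays; they were found after their values were seen and are given without a test. Cth, an enzyme of cysteine synthesis, was above it in 14 leukemias with a highest level of 8.44. Usp22 (11 leukemias), Rragd, Slc45a3 and Umod (10 each) followed, with highest levels of 6.15, 6.75, 8.28 and 7.74. Usp22 thus stayed under 6.27, the 99th percentile of the background probe sets, in every leukemia. Cdkn2a, Kcna5, Meis1, Nrg4 and Tac4 were above it in 9 each, with Meis1, a homeobox cofactor of Hoxa9, reaching 6.98 and Cdkn2a 10.13. Cbln1, a synaptic organizer, was above it in 8 and had the highest single level, 12.54, and Prss23 was also above it in 8.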
